A study of Mus musculus with 30 samples.

Results

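Antiviral interferon effector genes were followed through RNA-seq of retinal pigment epithelium (RPE) and bone marrow-derived macrophages (BMDMs) from C57BL/6 wild-type mice (B6 WT) and from 3 mouse lines that lack the receptor tyrosine kinase MERTK. The members were Ifit1, Ifit2, Ifit3, Mx1, Mx2, Rsad2, Isg15, Usp18, Ifi44 and Apol9b. Each was taken by its symbol, and all 10 were found among the 55573 genes of both tables. They were chosen partly by their values in Mertk-/-V1 and Mertk-/-V2 RPE, where they were known to be high. Their differences from WT in those knockout groups are therefore given as a description, without a test. Mertk-/-V3 RPE and all BMDM groups did not enter the choice and were tested.

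The RPE set held 18 libraries from mice at postnatal day 25 (P25), of which 6 came from B6 WT mice, 6 from the V1 line and 3 each from the V2 and V3 lines. The BMDM set held 12 libraries, 3 of each genotype, from marrow grown in L929-conditioned medium. Mertk-/-V1 mice were made in 129P2 embryonic stem cells. They lack an exon of the kinase domain, keep the neomycin cassette and, after backcrossing to C57BL/6J, still carry a 129P2 segment around Mertk on chromosome 2. Mertk-/-V2 mice lost a kinase-domain exon in the germline through a tamoxifen-activated Cre at Rosa26 that was later bred out, and Mertk-/-V3 mice lost early exons through CRISPR in C57BL/6NJ eggs. The V2 and V3 lines therefore carry a mixed C57BL/6J and C57BL/6NJ background that the WT libraries do not share, and line background cannot be told apart from the Mertk deletion. RPE material was shaken loose from the posterior eyecup and is not a sorted cell population.

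Interferons of type I act through the IFNAR1 and IFNAR2 receptor chains, and type III interferons (interferon lambda) through IFNLR1 and IL10RB. Both switch on the kinases JAK1 and TYK2, and a transcription factor complex that includes IRF9 then binds a GAAA-rich element in front of antiviral genes. The IFIT proteins bind foreign RNA, the Mx GTPases restrict viruses and RSAD2 (viperin) makes a chain-terminating nucleotide. ISG15 is a ubiquitin-like protein that is joined to other proteins, USP18 removes it and also restrains the type I receptor, and the roles of Ifi44 and Apol9b are less well defined. In C57BL/6 mice Mx1 carries a deletion and makes no working protein, so its transcript serves here as a readout only.

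Promoter stretches whose letters match the GAAA-rich element are shown first, because the results compare the members as a group. RefSeq windows of 300 bases (250 before the transcription start and 50 after it, GRCm38.p6) were found for 7 of the 10 members. They were searched on both strands for GAAANNGAAA, where matches may overlap. The motif was present in 5 of these 7 members, Ifit1, Ifit3, Rsad2, Isg15 and Apol9b, compared with 3.99% of the 27025 genes with a window. It was not found in the windows of Ifit2 and Ifi44, and Mx1, Mx2 and Usp18 had no window in the table. Each stretch below runs 5′ to 3′ on the strand of its gene and ends before the RefSeq start. Capitals mark the matches, written as TTTCNNTTTC where they lie on the other strand.
Ifit1, plus strand, chr19:34640773-34640825: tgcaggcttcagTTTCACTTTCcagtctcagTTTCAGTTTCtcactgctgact
Ifit3, plus strand, chr19:34583361-34583428: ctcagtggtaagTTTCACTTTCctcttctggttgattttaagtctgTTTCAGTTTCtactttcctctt
Rsad2, minus strand, chr12:26456551-26456584: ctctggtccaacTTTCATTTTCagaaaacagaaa
Isg15, minus strand, chr4:156200863-156200908: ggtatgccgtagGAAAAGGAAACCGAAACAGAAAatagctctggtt
Apol9b, plus strand, chr15:77729023-77729062: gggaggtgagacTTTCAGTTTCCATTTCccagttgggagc
Isg15 held 3 overlapping matches, Apol9b 2 overlapping matches, Ifit1 and Ifit3 2 separate matches each and Rsad2 1. The Apol9b stretch reaches 24 bases into the gene as GENCODE draws it. A match describes the letters in the window and is not evidence of a bound site.

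The members lie on 7 chromosomes, none of them chromosome 2. Ifit1 (chr19:34640871-34650009), Ifit2 (chr19:34550694-34576419) and Ifit3 (chr19:34583531-34588731) form a cluster, and Mx1 (chr16:97447035-97462907) and Mx2 (chr16:97535308-97560900, annotated as a polymorphic pseudogene) are neighbours. Near copies limit what reads can be assigned. The transcript of Ifit3 was 97.8% identical to that of Ifit3b over 1700 bases, Apol9b was 98.4% identical to Apol9a over 1422 bases, and Mx1 was 94.8% identical to Mx2 over 920 bases. Counts of these genes are uncertain in how reads were split between the copies.

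Libraries held 14137666 to 34124049 gene-assigned reads in RPE and 16629659 to 25653814 in BMDMs. Mertk normalized counts were 2638 to 3924 in WT RPE, 919 to 1717 in Mertk-/-V1 and 444 to 1106 in Mertk-/-V3. In Mertk-/-V2 they were 3565 to 5311, and BMDMs showed the same order. A count over the whole gene does not check the loss of a single exon, so it checks nothing for V2. All 10 RPE markers were above 3 reads in every RPE group, while 6 of 10 were at or below 3 reads in each BMDM group. The summed RPE marker level was 517541 to 879108 normalized counts in WT RPE and 204438 to 647807 in Mertk-/-V1, and rod photoreceptor markers were also abundant (29575 to 312507 in WT, 55937 to 793398 in V1). In such bulk material fewer cells of a type and less RNA per cell cannot be told apart.

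Per length of all annotated exons, the members differed widely in WT tissue. In WT RPE, Ifit3 was by far the highest at 47.2 ± 4.47 RPKM (SD, n = 6). RPKM are reads scaled to the joint length of all annotated exons and to library size. Isg15 followed at 6.96 ± 1.00, Ifit1 at 5.49 ± 0.66 and Ifit2 at 4.21 ± 0.88 RPKM, and these neighbours in the order overlapped at 1 SD. Usp18 (2.61 ± 0.29) and Rsad2 (2.11 ± 1.04) lay lower. On this length Mx2, Apol9b, Ifi44 and Mx1 were all under 1 RPKM, at 0.712, 0.378, 0.316 and 0.237. The exons of Ifi44 span 6129 bases against 2910 in a single transcript, and those of Mx2 3614 against 2417. The level and order of these low members thus depend on the length used. WT BMDMs had another order, with Isg15 first at 7.0 ± 1.74 RPKM (SD, n = 3), Ifit2 at 2.97 ± 0.26, Rsad2 at 2.32 ± 0.67 and Ifit3 at only 1.66 ± 0.74. Apol9b was close to absent in BMDMs, with 0 to 3 reads in each of the 12 libraries.

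In RPE at P25, all 10 members had a higher mean in Mertk-/-V1 and in Mertk-/-V2 than in WT. In Mertk-/-V1, 6 of the 10 had every library above every WT library, a pattern that 0.568% of the 18832 genes tested showed. In Mertk-/-V2 this held for 10 of 10, with 3.72% of all genes. Since the members were chosen with these contrasts in view, the counts describe the choice and are not evidence for it. The median log2 difference over the members was 1.25 in V1 and 1.51 in V2, where the median over all genes was 0.02 in both. The plot of RPE counts by library shows each value.

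**Figure D1:**
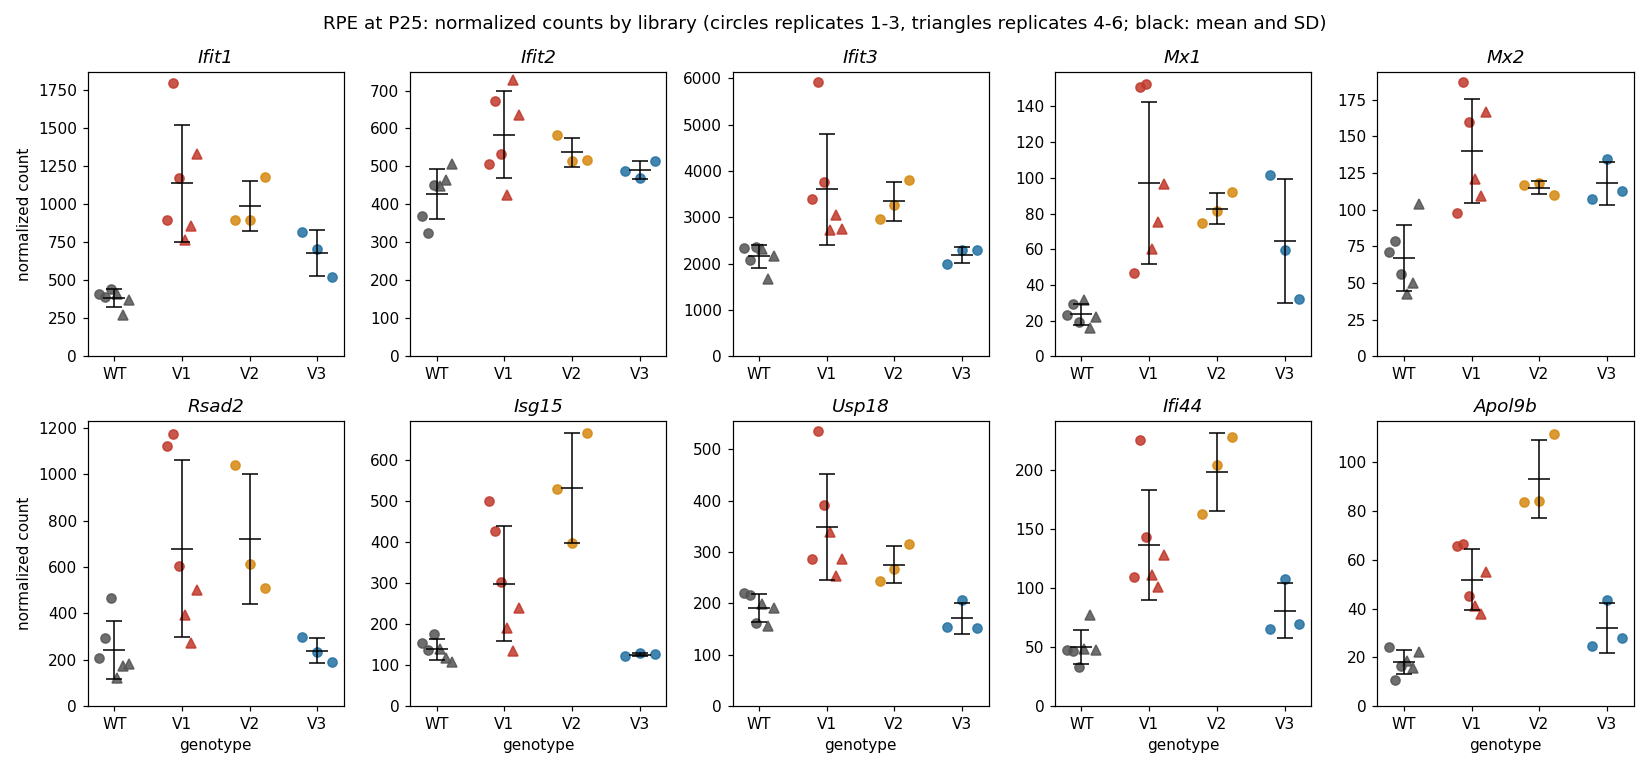
Normalized counts (y axis, linear, from 0) of the 10 members in each RPE library by genotype (x axis); circles are replicates 1 to 3, triangles replicates 4 to 6, and black bars the mean and SD. Mertk-/-V2 libraries lie above all WT libraries for every member, while Mertk-/-V3 libraries lie above WT for Ifit1, Mx1, Mx2 and Apol9b and among or below WT for Ifit3, Rsad2, Isg15 and Usp18.

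The IFIT genes, whose proteins bind foreign RNA, differed among themselves. Ifit1 normalized counts ran from 274 through a median of 400 to 443 in WT RPE and from 768 through 1033 to 1794 in Mertk-/-V1. They were 895, 894 and 1181 in Mertk-/-V2 and 815, 703 and 520 in Mertk-/-V3. Every knockout library of all 3 lines thus exceeded the highest WT library, with a log2 difference of 1.52 ± 0.19 (SE) in V1 and 1.37 ± 0.23 in V2. Ifit3, the most abundant member, ran from 1679 through 2242 to 2358 in WT and from 2726 through 3220 to 5923 in V1. It was 2959, 3268 and 3800 in V2 and 1991, 2288 and 2289 in V3. V1 and V2 did not overlap WT, whereas the V3 values fell inside the WT range. Ifit2 had the smallest difference of the 10 in V1 and V2 and ran from 326 through 450 to 505 in WT and from 426 through 585 to 729 in V1. It was 582, 514 and 517 in V2 and 489, 469 and 515 in V3. Its V1 and WT libraries overlapped, and the log2 difference was 0.44 ± 0.13 in V1 and 0.34 ± 0.16 in V2.

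The near copy Ifit3b showed a similar order to Ifit3, with group means of 1318 in WT, 1884 in V1, 1869 in V2 and 1265 in V3 normalized counts. Ifit1bl1, which shares 76.0% identity with Ifit1 over 1371 bases, was abundant in every genotype, from 3020 to 14041 in WT and from 2846 to 14935 in V1. It therefore did not separate the genotypes.

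The Mx genes were low but separated well. Mx1 ran from 15.7 through 22.6 to 31.5 normalized counts in WT RPE (12 to 25 reads per library) and from 46.5 through 86.0 to 153 in V1. It was 74.9, 81.5 and 92.0 in V2 and 102, 59.9 and 32.4 in V3. No knockout library reached down to the WT range, although the lowest V3 library lay just above the highest WT library. Mx2 ran from 42.6 through 63.6 to 104 in WT and from 97.9 through 140 to 187 in V1, with 117, 118 and 110 in V2 and 107, 135 and 113 in V3. Here V2 and V3 were narrow groups of about the same level, and V1 overlapped WT only through its lowest library. The log2 differences for Mx1 were 1.90 ± 0.31 in V1 and 1.80 ± 0.38 in V2, and for Mx2 1.08 ± 0.21 and 0.83 ± 0.26.

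Rsad2, which encodes viperin, was relative to its mean the most variable member within WT, V1 and V2 RPE, but not within V3. It ran from 122 through 194 to 467 in WT and from 272 through 552 to 1176 in V1, was 1042, 614 and 510 in V2 and 296, 232 and 188 in V3. V1 overlapped WT, V2 did not, and V3 fell inside the WT range.

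Among genes of the ISG15 system, Isg15 lay inside the WT range in V3 and was high in V2. Isg15, the ubiquitin-like modifier, ran from 107 through 137 to 177 in WT and from 134 through 271 to 501 in V1. It was 531, 398 and 668 in V2 and 122, 128 and 126 in V3. V2 was thus 3.85 times the WT mean, V1 2.16 times and V3 0.908 times, and all V1 libraries lay above all V3 libraries. Usp18, which removes ISG15 and dampens receptor signalling, ran from 156 through 195 to 220 in WT and from 253 through 313 to 535 in V1. It was 244, 266 and 316 in V2 and 154, 206 and 151 in V3, among or just below the WT values.

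Ifi44 and Apol9b were highest in V2. Ifi44 ran from 33.0 through 47.3 to 77.3 in WT and from 101 through 120 to 226 in V1, was 163, 204 and 228 in V2 and 64.7, 107 and 69.4 in V3. Apol9b ran from 10.6 through 17.5 to 24.2 in WT and from 37.7 through 50.1 to 66.3 in V1, was 83.8, 84.0 and 112 in V2 and 24.5, 43.6 and 27.8 in V3. Apol9b was the single member with every V2 library above every V1 library, but the share of all genes with this pattern was not counted. The log2 difference of Apol9b from WT was 2.35 ± 0.27 in V2 and 1.49 ± 0.22 in V1. Its near copy Apol9a had group means of 22.5 in WT, 52.5 in V1, 126 in V2 and 24.7 in V3. The difference between V1 and V2 was not tested, because both groups entered the choice of members.

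WT and V1 RPE had replicates numbered 1 to 6, while V2 and V3 had replicates 1 to 3 only, so the values were also taken within replicates 1 to 3 and 4 to 6. Within replicates 1 to 3, all 10 members were higher in every V1 library than in every WT library, with a median log2 difference of 1.47, where 6.42% of all genes did not overlap in this direction. Within replicates 4 to 6 this held for 8 of 10 (5.77% of all genes), and the median was 1.05. These counts too describe contrasts used in the choice of members. Isg15 and Ifit2 overlapped there. For Isg15 the log2 difference was 1.37 within the first set and 0.60 within the second, and for Ifi44 it was 1.83 and 1.00, while Mx2 (1.06 and 1.09) and Ifit1 (1.57 and 1.47) were alike in both. Against WT replicates 1 to 3 alone, the median for V2 was 1.21, and against WT replicates 4 to 6 alone it was 1.65.

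V1 replicate 2 was the highest of the 18 RPE libraries for 5 of the 10 members, and without it the median log2 difference in V1 was 1.11. Macrophage markers moved with the knockouts in part. Their summed level overlapped between genotypes (7820 to 12976 in WT, 6605 to 11923 in V1, 9549 to 11775 in V2 and 6510 to 12277 in V3). However, 4 of 10 macrophage markers (Adgre1, Fcgr1, C1qa and Ptprc) were higher in every V1 library than in any WT library, 3 of 10 (Fcgr1, Aif1 and C1qa) in V2 and Fcgr1 alone in V3. Of all genes, 0.568% showed this in V1, 3.72% in V2 and 2.75% in V3. None of the 10 markers was at 0. By median, Csf1r was below WT in V1 (6578 against 7526) and V2 (7268), and Itgam in V2 (415 against 778) and V3 (396). Cd68 and Lyz2 were below WT in V3, and all other medians of the 10 were above WT. In V2, 2 of 4 plasmacytoid dendritic cell markers (Siglech and Tcf4) and 3 of 4 genes listed as melanocyte markers (Mlana, Dct and Tyrp1) were also above all WT libraries. So were 2 of 10 RPE markers (Pmel and Tyr), the glial marker Vim and the T and NK cell marker Ncr1. However, the remaining gene of the melanocyte list, Sox10, had a V2 median of 2384 against 2770 in WT. In WT RPE the medians were 95498.5 for Dct, 27801.8 for Tyrp1 and 4392.76 for Mlana. The RPE markers Rpe65 and Tyr had WT medians of 82891.3 and 12569.3. Which cells the higher values of Mlana, Dct and Tyrp1 in V2 came from was not tested, so they do not show a melanocyte difference. Of the remaining plasmacytoid markers, Ccr9 was below and Irf8 above WT by median in V2. In V1 the plasmacytoid marker Irf8 was above and the glial marker Glul below all WT libraries. In V3 the T and NK cell marker Cd4 was above all WT libraries. The erythroid marker Hbb-bt and the neutrophil marker Retnlg were below them. The share of all genes below all WT libraries was not counted. The part of these in the members' levels was not tested.

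Mertk-/-V3 RPE was compared with WT by limma, a linear model on log2(normalized count + 1) with p-values adjusted over all genes. A differentially expressed gene (DEG) needed an adjusted p under 0.05 and a log2 difference of at least 1.25 in either direction. This comparison used the WT libraries that had also served in the choice of members. None of the 10 members was a DEG, and none passed on the adjusted p alone. Among all 18832 genes tested, 0.0637% were DEGs and 0.0690% passed on the adjusted p, so few genes of any kind were called. At an unadjusted p under 0.05 there were 5 members and 11.1% of all genes, and by edgeR or DESeq2 on recovered reads there were 0 calls. The labels call the libraries of a group biological replicates, and each p-value measures the spread between them.

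The members' values in Mertk-/-V3 RPE ranged from below to well above WT. The libraries of 4 members (Ifit1, Mx1, Mx2 and Apol9b) were all above WT, compared with 2.75% of all genes. The log2 difference was 1.31 ± 0.38 for Mx1 (adjusted p = 0.441), 0.87 ± 0.26 for Mx2 (0.441), 0.82 ± 0.23 for Ifit1 (0.441), 0.80 ± 0.27 for Apol9b (0.449) and 0.68 ± 0.27 for Ifi44 (0.449). At the other end, Usp18 was at -0.16 ± 0.20 (adjusted p = 0.724), Isg15 at -0.12 ± 0.32 (0.866), Ifit3 at 0.03 ± 0.19 (0.946) and Rsad2 at 0.10 ± 0.45 (0.915). For these last 4 members the sign turned under at least 1 other method, set of WT libraries or left-out library. The median over the 10 members was 0.45, against -0.01 over all genes.

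**Figure D2:**
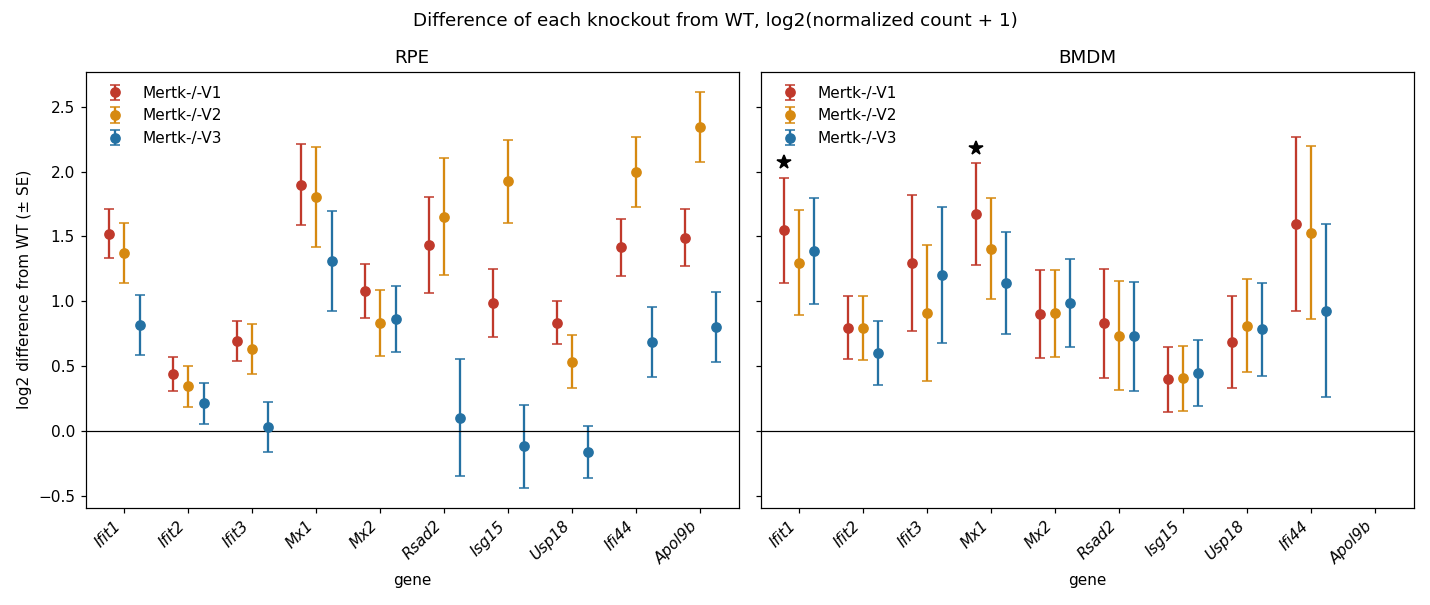
Log2 difference of each knockout from WT (y axis, with SE) for the 10 members (x axis) in RPE (left) and BMDMs (right); stars mark DEGs among the tested comparisons, and Apol9b had too few reads in BMDMs. Mx1 in Mertk-/-V1 BMDMs stands at 1.67 and Ifit1 at 1.55, while Isg15 in RPE runs from 1.93 in V2 to -0.12 in V3.

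Of 85 other interferon pathway genes listed by role, 74 passed the filter in RPE. All of their libraries lay above WT for 15 of 74 in V1, 25 of 74 in V2 and 5 of 74 in V3. The shares of all genes were 0.568%, 3.72% and 2.75%. Those in V2 include the ligands Ifnl2 and Ifnl3, which had 0 reads in WT and passed the filter only through V2. The list was drawn up with earlier results known, so the V1 and V2 counts are a description. In the V3 test none of the 74 passed in either direction. Among the 6 receptor genes none had all its libraries above or below WT in any line, and their log2 differences ranged from -0.02 to 0.12 in V1. The interferon lambda receptor chain Ifnlr1 was at -0.51 ± 0.42 in V2. In V3 all 6 were below 0 with a median of -0.44, from Ifngr1 at -0.58 ± 0.25 (adjusted p = 0.449) and Ifnlr1 at -0.57 ± 0.42 (0.563) to Ifnar1 at -0.0010 (0.995). Among the signalling genes, Irf9, which encodes the DNA-binding part of that complex, was 0.58 ± 0.10 higher in V1 and 0.50 ± 0.12 in V2, on the log2 scale and without a test. The kinases Jak1, Jak2 and Tyk2 lay between -0.19 and 0.15 in V1 and V2. In V3, Stat2 differed by 0.36 (adjusted p = 0.448) and Irf9 by 0.20 (0.499).

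Interferon lambda and beta transcripts, the ligands upstream of the members, were found mainly in V2 RPE. Ifnl2 had 118, 35 and 81 reads in the 3 V2 libraries and Ifnl3 115, 59 and 57. Both were at 0 reads in all 6 WT and all 3 V3 libraries, which allows up to 3 reads in each. In V1, replicate 1 held 16 reads of Ifnl2 and 29 of Ifnl3, replicate 2 held 1 read of Ifnl2, and the other 4 libraries held none. Ifnb1, the interferon beta gene, had 18, 7 and 24 reads in V2 and at most 1 read in any other RPE library. The transcripts of Ifnl2 and Ifnl3 were 97.1% identical over 582 bases, so their reads cannot be assigned with certainty. The remaining ligands of the list reached at most 4 reads.

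**Figure D3:**
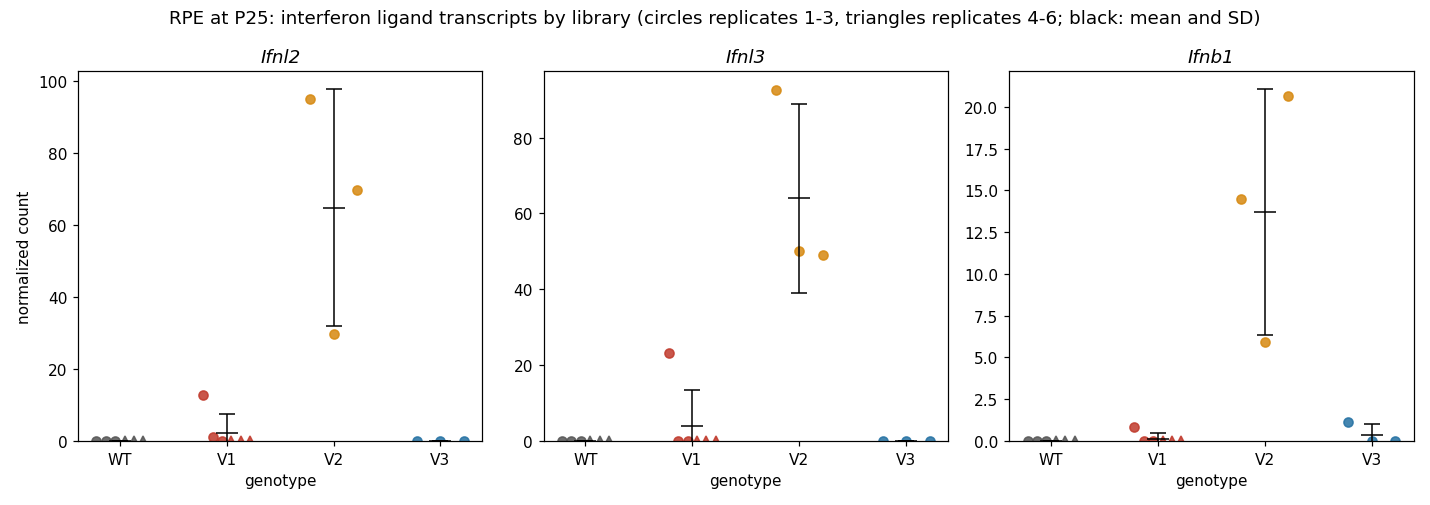
Normalized counts (y axis, linear, from 0) of Ifnl2, Ifnl3 and Ifnb1 in each RPE library by genotype (x axis); circles are replicates 1 to 3, triangles replicates 4 to 6, and black bars the mean and SD. All 3 Mertk-/-V2 libraries carry the transcripts, at 29.7 to 95.1 for Ifnl2, and Mertk-/-V1 replicate 1 alone among the V1 libraries exceeds 3 reads.

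In BMDMs, all 9 members that passed the filter had a higher mean in each of the 3 knockouts than in WT. The median log2 difference was 0.90 in V1, 0.91 in V2 and 0.93 in V3, against 0.00 over all genes in each. Ifi44 passed the filter only through the knockouts, with means of 15.6 in V1, 18.7 in V2 and 11.2 in V3 against 5.49 in WT. Its higher means were therefore favoured by the filter and are no support. Only Mertk-/-V1 gave calls, and these were Ifit1 and Mx1.

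For Ifit1 the WT BMDM libraries held 32.9, 29.3 and 49.8 normalized counts, V1 91.6, 99.0 and 139, V2 187, 82.7 and 48.4 and V3 99.4, 62.9 and 145. Every V1 and V3 library was above WT, and V2 replicate 3 was at the WT level. The log2 difference was 1.55 ± 0.41 in V1 (adjusted p = 0.0376, DEG), 1.30 ± 0.41 in V2 (0.0848) and 1.39 ± 0.41 in V3 (0.116). For Mx1 the WT values were 41.9, 21.2 and 62.5, V1 123, 134 and 116, V2 165, 109 and 60.8 and V3 65.5, 70.4 and 137. The log2 difference was 1.67 ± 0.39 in V1 (adjusted p = 0.0227, DEG), 1.41 ± 0.39 in V2 (0.0571) and 1.14 ± 0.39 in V3 (0.173). Leaving out any one of WT replicates 1 and 2 or the 3 V1 replicates ended both V1 calls, with adjusted p from 0.0649 to 0.138, and both held only without WT replicate 3.

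**Figure D4:**
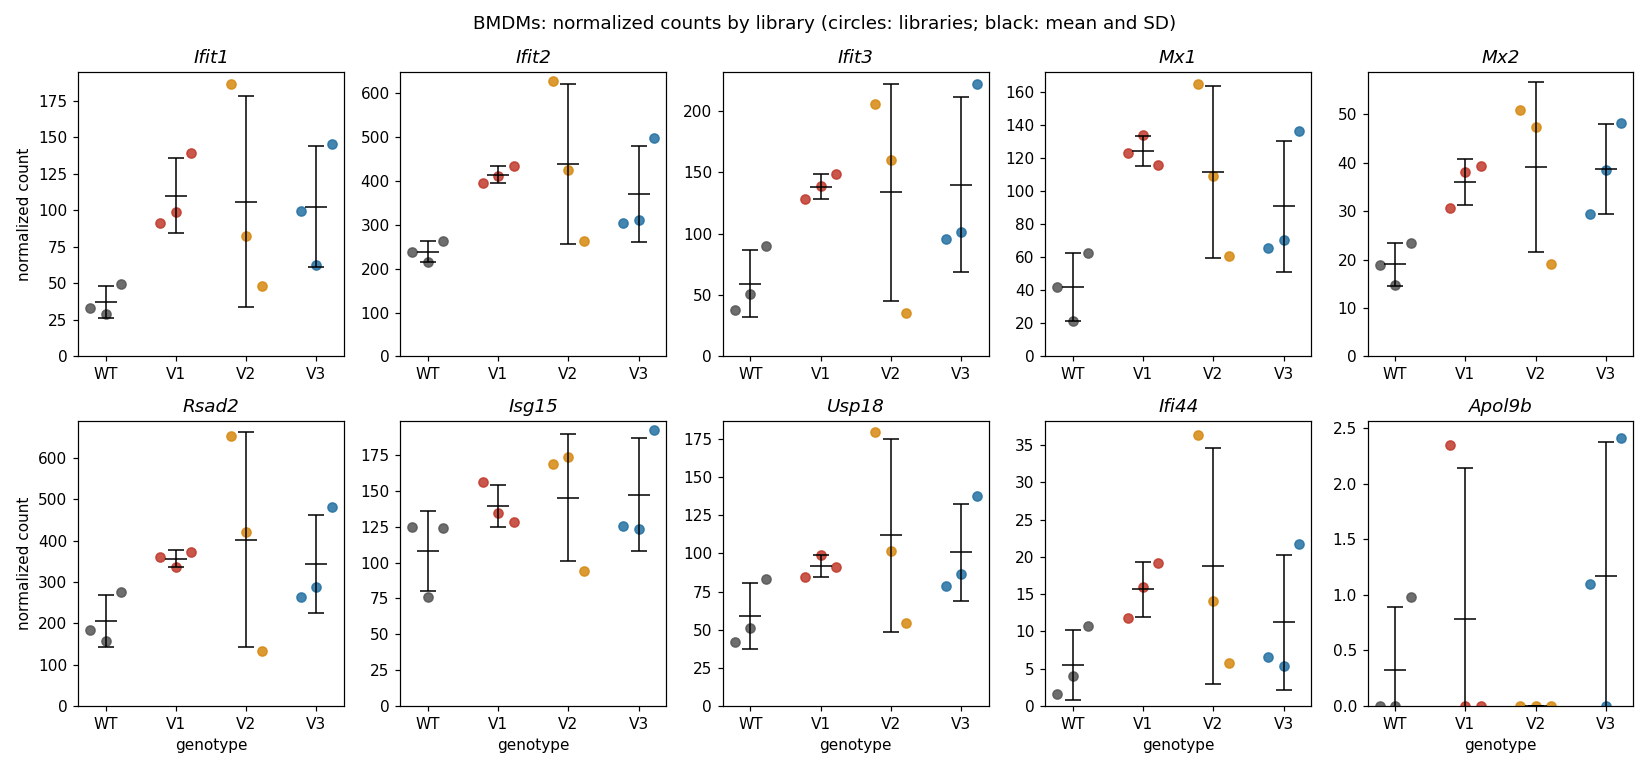
Normalized counts (y axis, linear, from 0) of the 10 members in each BMDM library by genotype (x axis); circles are libraries and black bars the mean and SD. The 3 Mertk-/-V1 libraries lie close together above WT, while Mertk-/-V2 spreads from the highest values to the WT range and Apol9b stays at 0 to 3 reads.

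The 2 called members were 2 of 9 in V1, where 0.425% of 13420 genes were DEGs and 7.07% passed on the adjusted p alone. None of the 9 was called in V2 (0.253% and 4.61% of all genes) or in V3 (0.156% and 1.17%), with 6 members at an unadjusted p under 0.05 in each, as in V1. Of all genes, 23.6% were under it in V1, 21.4% in V2 and 15.9% in V3. There edgeR called 0 in both lines and DESeq2 2 in V2 and 0 in V3. The share of all genes called by DESeq2 was not counted. All 9 members had every V1 library above every WT library, against 15.4% of all genes. This held for 5 of 9 in V3 (12.2% of all genes) and for 1 of 9, Ifit2, in V2 (10.1%). Ifi44, which passed the filter only through the knockouts, was among the 9 in V1. It was also among the 6 members under an unadjusted p of 0.05 by limma in V1 and V2.

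Ifit2 and Ifit3, the other RNA-binding IFIT genes, were also highest in V2 or V3 libraries. Ifit2 was 238, 214 and 263 in WT BMDMs, 396, 412 and 434 in V1, 628, 426 and 263 in V2 and 305, 311 and 497 in V3. Ifit3 was 37.8, 50.5 and 89.9 in WT, 128, 139 and 148 in V1, 206, 160 and 35.1 in V2 and 96.1, 101 and 223 in V3. V2 replicate 3 was the lowest Ifit3 library of all 12. The log2 difference of Ifit3 was 1.30 ± 0.52 in V1 (adjusted p = 0.151) and 1.20 ± 0.52 in V3 (0.281), compared with 0.03 for V3 in RPE.

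Rsad2 was 184, 156 and 275 in WT BMDMs, 361, 335 and 373 in V1, 653, 420 and 134 in V2 and 264, 287 and 480 in V3. Its V1 libraries alone stood clear of WT. Isg15 was 125, 75.8 and 124 in WT, 156, 135 and 128 in V1, 169, 173 and 94.0 in V2 and 126, 124 and 193 in V3. It had the smallest difference of the 9 in every line, from 0.40 to 0.45 on the log2 scale with an SE of 0.25. Usp18 was 41.9, 51.4 and 83.0 in WT, 84.6, 99.0 and 91.1 in V1, 180, 102 and 54.1 in V2 and 78.6, 86.3 and 137 in V3. Mx2 ranged from 14.7 to 23.4 in WT, from 30.5 to 39.4 in V1, from 19.0 to 50.9 in V2 and from 29.5 to 48.2 in V3. Ifi44 rested on 2 to 11 reads in WT and 5 to 30 in the knockouts, so its differences of 1.60, 1.53 and 0.93 carried an SE of 0.67.

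In BMDMs the members were high or low together in the same libraries, also within a genotype. V2 replicate 1 was the highest of the 12 libraries for 7 of the 9 members and V3 replicate 3 for the other 2. At the low end, WT replicate 2 was the lowest for 5, and WT replicate 1 and V2 replicate 3 for 2 each. Without V2 replicate 3, 5 members (Ifit1, Ifit3, Mx1, Mx2 and Rsad2) were called in V2, with adjusted p from 0.00523 to 0.0110, compared with 0 when it was included. The share of all genes called in that fit was not counted, so these calls are no result about the members. Within genotypes, each member's deviations correlated with the mean deviation of the other members at r = 0.784 to 0.969 over 12 libraries in BMDMs. In RPE the same r was 0.018 (Ifit2) to 0.821 (Ifit1) over 18 libraries. These correlations are descriptive, since all members share the depth and material of each library.

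**Figure D5:**
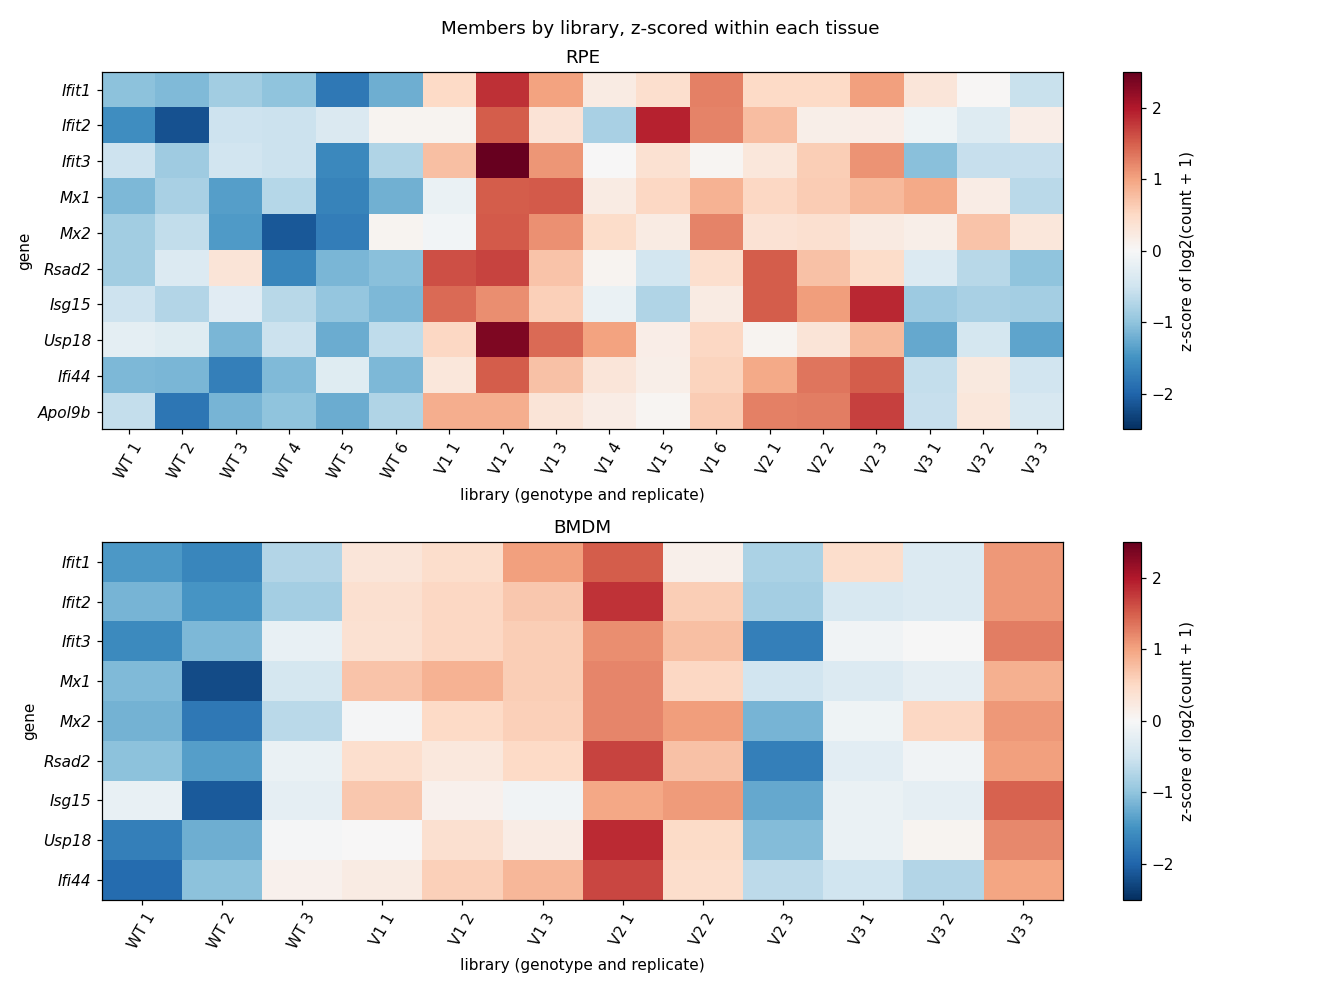
Z-scores of log2(normalized count + 1) for each member (rows) in each library (columns) of RPE (top, 10 members) and BMDMs (bottom, 9 members), scaled within each tissue. In BMDMs whole columns share a colour, as in Mertk-/-V2 replicate 1 (high) and Mertk-/-V2 replicate 3 (low), while in RPE the columns of Mertk-/-V3 mix higher values (Mx1, Mx2) with lower ones (Isg15, Usp18).

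Direct comparisons between the knockout lines in BMDMs called none of the 9 members. Among all genes 0.134% were DEGs between V1 and V2, 0.373% between V1 and V3 and 0.246% between V2 and V3. No member reached an unadjusted p under 0.05 in any of the 3, and edgeR and DESeq2 also called 0. The largest difference between lines was that of Ifi44 between V1 and V3, at 0.67 ± 0.67 on the log2 scale (adjusted p = 0.636). SEs were 0.24 to 0.67 on the log2 scale with 3 libraries each, and differences well over 1 SE could go uncalled. Ifit1 in V2 BMDMs against WT, at 1.30 ± 0.41, was not called (adjusted p = 0.0848 by limma). The lack of calls therefore does not show that the lines were alike.

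Whether the V3 line differed from WT unequally in the tissues was tested as an interaction by edgeR on the recovered reads of all 30 libraries. Of the 9 members tested in both tissues, 8 had a lower V3 difference in RPE than in BMDMs, with a median of -0.58 on the log2 scale. Apol9b is left out here, since its 0 to 3 reads give no usable BMDM value. None was called at an adjusted p under 0.05, and only 0.0192% of 20873 genes were. Ifit3 (-1.23) and Usp18 (-0.93) were the 2 members with an unadjusted p under 0.05, as were 4.82% of all genes, and by edgeR both had an adjusted p of 0.950. Mx1 went the other way, at 0.35 (adjusted p = 1).

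In BMDMs 71 of the 85 listed pathway genes passed the filter. All of their libraries lay above WT for 29 of 71 in V1, 8 in V2 and 29 in V3. The shares of all genes were 15.4%, 10.1% and 12.2%. All libraries lay below WT for 7, 3 and 1 of the 71. Since the list was drawn up with earlier results known, these counts are a description. At an adjusted p under 0.05, 5 were higher and 2 lower in V1, 1 higher and 1 lower in V2, and 1 higher in V3. The shares of the 71 that passed lay near those of all genes (7.07%, 4.61% and 1.17%), so these calls are no result about the list. The higher ones in V1 were Tyk2 (0.26 ± 0.05 on the log2 scale, adjusted p = 0.0081), the ISG15 conjugation genes Uba7 (0.37 ± 0.09, 0.0305) and Trim25 (0.26 ± 0.06, 0.0284), Parp12 (0.31 ± 0.08, 0.0389) and the immunity-related GTPase Iigp1 (1.75 ± 0.48, 0.0426). The lower ones were the receptor chain Il10rb (-0.17 ± 0.04, 0.0231) and the transcription factor Irf5 (-0.20 ± 0.05, 0.0386). In V2, Iigp1 was higher (1.87 ± 0.48, adjusted p = 0.0428) and Il10rb lower (-0.16 ± 0.04, 0.0464), and in V3 only Mov10 was higher (0.43 ± 0.07, 0.0111). No interferon ligand of the list exceeded 2 reads in any BMDM library. Irf7, which amplifies interferon production, was 0.81 ± 0.35 higher in V1 (adjusted p = 0.173), 0.88 ± 0.35 in V2 (0.158) and 0.78 ± 0.35 in V3 (0.294). Macrophage markers were abundant in every BMDM library, with sums of 264155 to 289503, and some did not overlap WT. In V1, 2 of 10 were above (Csf1r and Ptprc) and 2 below (Itgam and C1qa) all WT libraries, in V2 1 above and 1 below, and in V3 3 above and 5 below. Of all genes, 15.4% lay above all WT libraries in V1, 10.1% in V2 and 12.2% in V3. The share of all genes below all WT libraries was not counted, so the markers below cannot be set against it. Their part in the members' levels was not tested.

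The genes most like the members were sought by Pearson's r with the mean z-score of the members over all libraries of a tissue. In RPE these were Rtp4 (r = 0.974), Trim30a (0.907), Irgm1 (0.901), Irf9 (0.890) and Dhx58 (0.889) over 18 libraries. All 5 belong to the interferon pathway list. The 18 libraries include the V1 and V2 contrasts used in the choice of members. The list was also drawn up with earlier results known, so this overlap is no support. Rtp4 had group means of 201 in WT, 446 in V1, 463 in V2 and 235 in V3 normalized counts. In BMDMs they were Slfn5 (0.979), Oas2 (0.972), Daxx (0.971), Irf7 (0.970) and Cmpk2 (0.964) over 12 libraries, of which Oas2, Irf7 and Cmpk2 are in the list. Slfn5 had means of 953, 1587, 1538 and 1469 in WT, V1, V2 and V3. No gene appeared among the top 5 of both tissues. The libraries behind each r share genotype, depth and material, so r is given as a description.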

How the data were processed

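PolyA RNA was sequenced and, per the study's methods, reads were trimmed with btrim, aligned with STAR to GRCm38 and normalized with DESeq2. The counter, annotation and versions are not given in the sources used here. The deposited RPE and BMDM tables hold signal values, gene counts divided by size factors by the authors, each tissue on its own. Whole reads were recovered for 100% of values (tolerance 0.001 reads). The members and gene lists were chosen with earlier results of these data known. Genes with a mean normalized count of at least 10 were tested by limma 3.58.1 (R 4.3.3) on log2(normalized count + 1), all genotypes of a tissue in one model, with Benjamini-Hochberg adjustment. This fit 18832 genes and 10 members in RPE and 13420 genes and 9 members in BMDMs. DEG thresholds follow the study. Recovered reads were tested with edgeR 4.0.16 (quasi-likelihood, TMM) and DESeq2 1.42.0, and RPKM used GENCODE exon lengths. Code was tested on simulated data. Alternatives were another pseudocount, no filter, quantile normalization, array weights, a replicate block and leaving out each library. Replicate numbers were not taken as pairs. Of the 85 pathway genes, 84 were found by symbol. Named genes were the 10 members, near copies, Mertk, pathway genes called or signalling, and the 5 genes per tissue most correlated with the members. Counting error alone is covered by read limits, and reads are not independent molecules. The result of 1 gene of the pathway list is not reported here.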

Additional observations from a re-analysis of the deposited data

Results flagged for a closer look

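In the RPE groups of 6 libraries, 3 values of single members stood far from the rest of their group by Dixon's test, of the 40 ends looked at over 10 members and 2 genotypes. Chance alone flags about 1 in 20 groups. Ifit3 in Mertk-/-V1 replicate 2 was 5923 normalized counts, with the next library at 3761. Ifi44 in the same library was 226, with the next at 143. Ifi44 in WT replicate 5 was 77.3, with the next at 48.1. Groups of 3 libraries were not examined in this way.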

How the results depend on the processing

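The calls were tried again with a pseudocount of 5, no filter, quantile normalization, no fold threshold, only the groups compared, array quality weights, edgeR, DESeq2, a replicate block and each library left out. Over the members' own log2 differences, 608 repeats kept direction and side of the threshold, 11 lost the call, 21 gained it and 14 turned sign. Array quality weights called 3 members in V3 RPE, 4 in V1, 3 in V2 and 3 in V3 BMDMs, but the RPE weights did not converge and gave V3 replicate 2 a weight of 41.6. DESeq2 called 2 in V2 BMDMs, and fitting only the groups compared called 1 in V3 BMDMs. On the adjusted p alone, that fit passed 5 of 9 in V1 BMDMs, and array weights passed 8, 6 and 7 of 9 in V1, V2 and V3 BMDMs and 5 of 10 in V3 RPE. Leaving out 1 library gave 0 to 2 calls in V1 BMDMs and 0 to 5 in V2 BMDMs, with 5 without V2 replicate 3 and 1 without WT replicate 3. The comparisons between knockout BMDMs and the interaction gave 0 calls under every alternative. The share of all genes called was not counted for the alternatives, so their calls are no result about the members. The cause of these changes was not tested.

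Deviations of same-numbered libraries correlated at r from -0.30 to 0.36 in BMDMs (4 of 18 pairs over 0.1) and from -0.46 to 0.72 in RPE (median 0.15, 13 of 21 pairs over 0.1). Since not every pair was over 0.1, the numbers were not taken as pairs. With the replicate block 1 member was called in V1 BMDMs, where Ifit1 had an adjusted p of 0.0587 by limma. In V3 RPE it called none, but Mx2 passed on the adjusted p alone (0.79 on the log2 scale, adjusted p = 0.0145) and 6 of 10 members were above 0, against 8 without it.

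In V3 RPE, none of the members that turned sign was called in the main test. Rsad2 was -0.28 with array weights, -0.030 by edgeR, -0.015 by DESeq2, -0.46 with the replicate block, -0.38 against WT replicates 1 to 3 and -0.063 to 0.32 with 1 library left out. Ifit3 was -0.15 with the block, -0.045 against WT replicates 1 to 3 and -0.042 to 0.095 with 1 library left out. Usp18 was 0.16 with array weights, and Isg15 0.064 against WT replicates 4 to 6. The median log2 difference in V2 RPE was 1.21 against WT replicates 1 to 3, 1.65 against WT replicates 4 to 6 and 1.40 to 1.59 with 1 library left out. Low read numbers limit Ifi44 and Apol9b in BMDMs.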
